A study of Mus musculus with 4 samples.

Results

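The 10 genes described here are 5 genes of Cajal-Retzius cells (Reln, Trp73, Lhx1, Lhx5 and Calb2), the chemokine gene Cxcl12 of the meninges, and 4 genes of the Zic family (Zic1, Zic2, Zic4 and Zic5). They were chosen by gene symbol, and every array spot that the platform annotation gives 1 of these symbols was taken, which makes 19 of 44290 spots. Of these, 15 spots had values on all 4 arrays, and they cover all 10 genes, out of 11791 genes measured on all 4 arrays.

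RNA of the telencephalon, the front of the embryonic brain, was taken at stage E12.5 (embryonic day) from 152F7 mice and from wild type mice, both on the FVB background. The 152F7 mice are transgenic for a yeast artificial chromosome with human DNA of the Down syndrome region, which carries the kinase gene DYRK1A. Each genotype was 1 RNA pool, and both pools were hybridised together on 4 two-colour Agilent arrays with exchanged dyes. Wild type RNA was in Cy5 on 2 arrays and 152F7 RNA in Cy5 on the other 2, the dye orientations of the text below. How many embryos went into a pool, and of which sex, is not stated in the labels.

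Cajal-Retzius cells are among the earliest neurons of the cerebral cortex. They arise at the edges of the cortical sheet, in the cortical hem, the septum and the boundary between pallium and subpallium, and spread under the meninges over the cortical surface, where they secrete reelin, the protein that guides the layering of later neurons. The chemokine Cxcl12 from the meninges holds them at the surface through its receptor Cxcr4. Zic genes encode zinc finger transcription factors of the dorsal midline, the septum and the meninges, and several of them act in the development of these cells. Calb2, Lhx1, Lhx5 and the Zic genes are also expressed in neighbouring regions of the forebrain.

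Each value below is a deposited log2 ratio, numerator pool over denominator pool, given with the SD over the 4 arrays. Folds assume base 2, which the labels do not state. These arrays are technical replicates of 1 pool per genotype, so no test between genotypes was possible, and the SD leaves out the spread between embryos. The deposited ratios were taken to share 1 direction on the 4 arrays, because the sex-linked genes kept their sign when the dyes were exchanged. The 3 Xist spots with values on all arrays lay between -5.759 and -0.976, the Y-linked gene Eif2s3y between 1.766 and 2.388, and the Y-linked gene Kdm5d between 0.705 and 0.895. Which genotype is the numerator is settled neither by the labels nor by the values, so a sign names the higher pool and leaves its genotype unnamed. The pools also differed in these sex markers, and sex and genotype cannot be told apart. In whole tissue, fewer cells of a type and less RNA per cell cannot be told apart either.

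None of the 10 members passed 1.5-fold, and 1 of them, Zic4, passed 1.1-fold in its mean with all 4 arrays above 0, though its second spot, measured on 3 arrays, lay below 0. A gene counts here as higher, or as lower, if its mean ratio reached the fold and all 4 arrays gave the same sign. At 1.5-fold, 0 of 10 members were counted, against 0.0763% of all genes higher and 0.00848% lower. At 1.1-fold, 1 member, Zic4, was higher and 0 were lower, against 3.42% of all genes higher and 1.45% lower. The median of the 10 members was 0.024, beside 0.0021 over all genes. Without regard to size, 5 of 10 members kept their sign on all 4 arrays (Calb2, Cxcl12 and Zic4 above 0, Lhx1 and Zic1 below 0), and 22.7% of all genes did so. Among these 5 genes, only Cxcl12 and Zic1 kept 1 sign at every spot. No Calb2 spot kept its sign, 1 Lhx1 spot lay on both sides of 0, and the Zic4 spots lay on opposite sides. The same 5 genes had a mean larger in size than their SD over the arrays, as did 24.5% of all genes, but this criterion is close to the first.

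**Figure D1:**
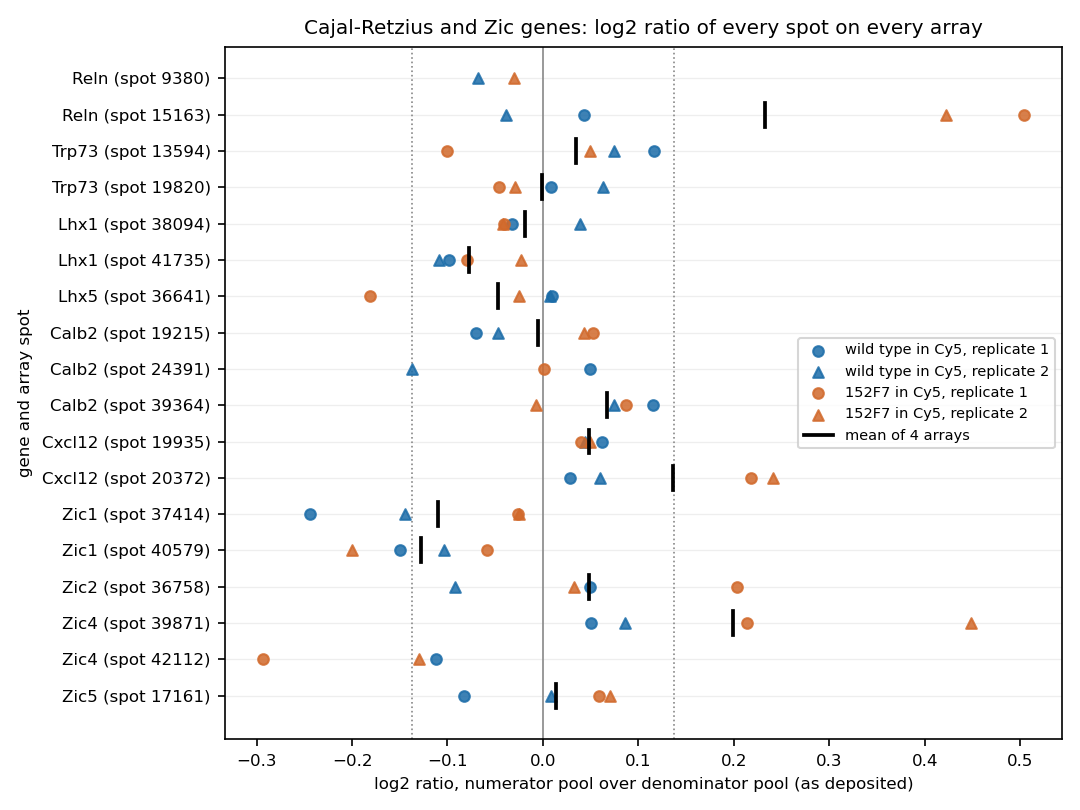
Log2 ratio (numerator pool over denominator pool) of each spot of the 10 genes on each array that gave a value. Blue marks stand for wild type in Cy5 (2 arrays) and orange marks for 152F7 in Cy5 (2 arrays), black bars for the mean of 4 arrays, and dotted lines for 1.1-fold. The highest means are 0.23 for spot 15163 of Reln and 0.20 for spot 39871 of Zic4, and at each of these spots the orange marks lie above the blue ones. All marks of Zic1 and of spot 42112 of Zic4 lie below 0.

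Zic1 and Zic4 had the lowest mean of all 10 genes and the second highest mean, and they are neighbours in the genome. In GRCm38.p6 Zic1 lies on chromosome 9 from 91358058 to 91365768 and Zic4 from 91365631 to 91389351, so that the annotated genes overlap by 138 bases. They are transcribed away from each other, Zic1 on the minus strand and Zic4 on the plus strand. The windows around 1 RefSeq start of each are shown because these neighbouring genes had means of opposite sign. For Zic4 that sign rests on 1 spot, and its other spot lay below 0, as Zic1 did, on the 3 arrays that measured it. The Zic1 window lies at the end of the gene that faces Zic4. The Zic4 window lies around another start, 3341 bases inside the gene as given above, and so does not show the overlap. Each runs from 250 bases before to 50 bases after its start, is taken from RefSeq on GRCm38.p6 and is written 5′ to 3′ on the gene's own strand. Capitals mark CG dinucleotides.
Zic1, chr9:91365719-91366018, minus strand: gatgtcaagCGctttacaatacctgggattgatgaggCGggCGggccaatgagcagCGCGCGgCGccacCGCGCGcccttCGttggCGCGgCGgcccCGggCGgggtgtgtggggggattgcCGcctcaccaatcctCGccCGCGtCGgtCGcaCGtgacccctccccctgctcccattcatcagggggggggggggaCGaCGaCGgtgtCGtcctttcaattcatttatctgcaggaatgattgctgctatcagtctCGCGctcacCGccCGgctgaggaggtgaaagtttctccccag
Zic4, chr9:91368722-91369021, plus strand: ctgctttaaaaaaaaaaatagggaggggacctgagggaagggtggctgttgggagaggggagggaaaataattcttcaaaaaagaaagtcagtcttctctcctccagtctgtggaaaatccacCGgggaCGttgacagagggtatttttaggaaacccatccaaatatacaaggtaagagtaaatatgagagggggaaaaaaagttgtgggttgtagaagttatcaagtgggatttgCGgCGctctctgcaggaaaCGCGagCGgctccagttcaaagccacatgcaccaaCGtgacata
The Zic1 window held 31 CG dinucleotides and the Zic4 window 8, beside a median of 7 over 32851 windows of the same length. The GC box GGGCGG, searched on both strands, occurred 3 times in the Zic1 window and 0 times in the Zic4 window, and 35.7% of all windows hold it. The letters CAGCAGG, a motif that Zic factors bind, searched on both strands, were in neither window, and 10.5% of all windows hold them. These matches are a description of the letters only.

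Zic4, a zinc finger factor that acts with Zic1 in midline and hindbrain development, was higher in the numerator pool by its only spot with values on all arrays. Spot 39871 gave 0.050 and 0.086 with wild type in Cy5 and 0.214 and 0.448 with 152F7 in Cy5. All 4 arrays lay above 0, the arrays of the second orientation higher than those of the first. The mean was 0.20 ± 0.18 (SD, n = 4 technical arrays), which is 1.15-fold, and 2.04% of all genes had a mean at least as large in size. The difference between the orientation means was 0.263, and 9.71% of all genes had a difference at least as large.

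The second Zic4 spot pointed the other way. Spot 42112 gave -0.112 with wild type in Cy5 on replicate 1, had no value on replicate 2, and gave -0.293 and -0.130 with 152F7 in Cy5. It is below 0 on each of the 3 arrays that measured it, and no array had both spots on the same side of 0. When spots with a value on at least 1 array of each orientation were taken, the Zic4 mean was 0.019 and no member remained past 1.1-fold in either direction. Without replicate 2 of wild type in Cy5, where the second spot also enters, the Zic4 mean was 0.014. Where in the gene either probe lies is not given in the sources used here. By the distance of the 4 array values, the genes most like Zic4 among all genes measured were Kcne1l (distance 0.0467, mean 0.19) and Gstm3 (distance 0.0798, mean 0.18), 4 arrays being too few to rank likeness finely.

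Zic1, a factor of the dorsal midline, of the septum and of cells that become meninges, was the member with the lowest mean. Spot 37414 gave -0.244 and -0.145 with wild type in Cy5 and -0.026 and -0.025 with 152F7 in Cy5. Spot 40579 gave -0.150 and -0.104 with wild type in Cy5 and -0.059 and -0.200 with 152F7 in Cy5. All 8 values lay below 0, with the dye orientations apart at the first spot and overlapping at the second. The gene mean was -0.12 ± 0.063, which is 1.09-fold lower in the numerator pool and just short of 1.1-fold, and 9.39% of all genes had a mean at least as large in size. The 2 spots differed by 0.018, less than the median of 0.0565 between the spots of the 4353 genes that have several. If the deposited values were natural logs, the Zic1 mean would be -0.17 on the log2 scale and past 1.1-fold. With wild type in Cy5 alone it was -0.16 and past it as well. In these settings 3.78% and 7.12% of all genes were lower at 1.1-fold. With 152F7 in Cy5 alone the Zic1 mean was -0.078, and with 1 orientation turned -0.042, both short of 1.1-fold.

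Zic2 and Zic5, the other neighbouring pair, stayed close to 0. Zic2, whose loss impairs division of the forebrain into hemispheres, lies on chromosome 14 from 122475384 to 122480328, and Zic5, a factor of the dorsal neural tube and neural crest, from 122459160 to 122465658, with 9725 bases and 1 annotated gene between them. The Zic2 spot gave 0.049 and -0.092 with wild type in Cy5 and 0.203 and 0.033 with 152F7 in Cy5, a mean of 0.048 ± 0.12. The Zic5 spot gave -0.083 and 0.008 with wild type in Cy5 and 0.059 and 0.070 with 152F7 in Cy5, a mean of 0.014 ± 0.070. In each the sign changed between arrays and the mean was smaller than the SD. The 4 Zic genes had a median of 0.031, with medians per array of -0.017 and -0.042 with wild type in Cy5 and 0.131 and 0.052 with 152F7 in Cy5. Their order from low to high was Zic1, Zic5, Zic2 and Zic4. Pooled over the arrays, the values of neighbours in this order overlapped, those of Zic1 and Zic5 by 1 array of each gene. Compared within each array, Zic5 lay above Zic1 on all 4 arrays. Zic4, by its spot 39871 alone, lay above Zic2 on all 4, while the order of Zic5 and Zic2 changed between arrays.

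Reln, which encodes reelin and is the classical product of Cajal-Retzius cells, had the largest mean of the 10 genes and the largest disagreement between dye orientations. This holds for ratios that share 1 direction, the reading taken from the sex-linked genes. With 1 orientation turned its mean would be -0.23, the lowest of the 10. It lies on chromosome 5 from 21884454 to 22344705, and 1 of its 3 spots had values on all arrays. Spot 15163 gave 0.043 and -0.039 with wild type in Cy5 and 0.504 and 0.422 with 152F7 in Cy5. The second pair lay far above the first, and the first lay on both sides of 0. The mean was 0.23 ± 0.27, so the SD was larger than the mean, while the SD within an orientation was 0.058. A mean at least as large in size was seen in 1.29% of all genes, and a difference between orientations as large as its 0.461 in 1.48%. Reln reached 1.1-fold in size but was not counted, since 1 array lay below 0, and without that array it was counted, with a mean of 0.25.

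The other Reln spots gave little. Spot 9380 had values on 2 arrays, -0.068 with wild type in Cy5 and -0.030 with 152F7 in Cy5, both below 0, and spot 10419 had none. With spot 9380 taken in, the Reln mean was 0.092. Of the 2 arrays that measured both spots, the one with wild type in Cy5 had both below 0 (-0.039 and -0.068), and the one with 152F7 in Cy5 had them on opposite sides (0.422 and -0.030).

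**Figure D2:**
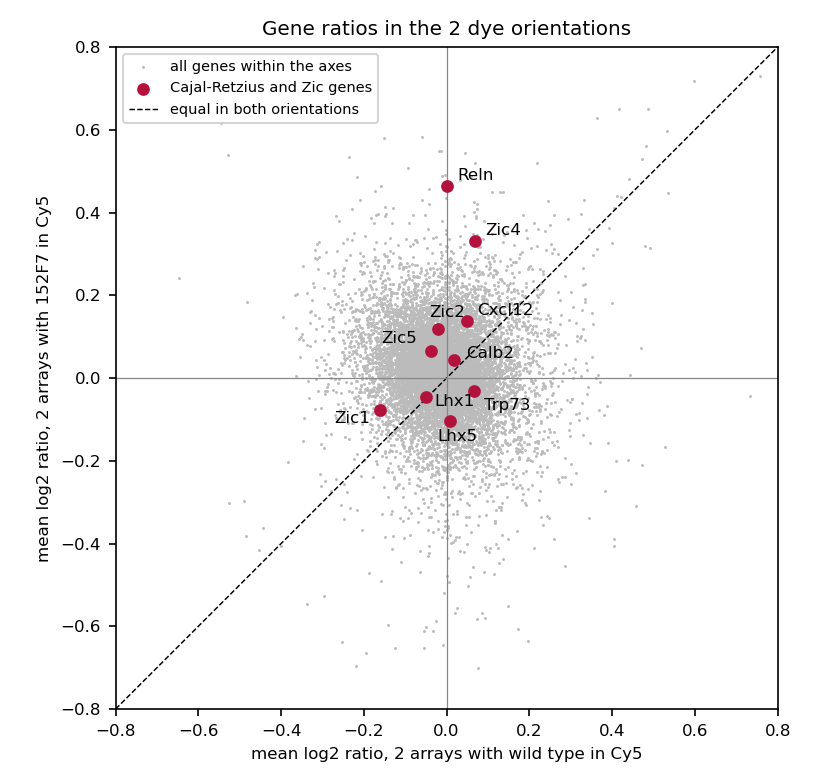
Mean log2 ratio of each gene with 152F7 in Cy5 (vertical axis, 2 arrays) against that with wild type in Cy5 (horizontal axis, 2 arrays), for all genes within the axes (grey) and the 10 members (red). The dashed line marks equal values. Reln, at 0.002 and 0.463, lies far above the line. Zic4, at 0.068 and 0.331, lies above it by 0.263, a difference that 9.71% of all genes reach in size. The other 8 lie nearer to the line, within the grey cloud around 0.

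The transcription factors of Cajal-Retzius cells lay close to 0. Trp73 encodes p73, a relative of p53 that these cells need to survive, and lies on chromosome 4 from 154056249 to 154139875. Spot 13594 gave 0.116 and 0.074 with wild type in Cy5 and -0.101 and 0.049 with 152F7 in Cy5, and spot 19820 gave 0.008 and 0.063, then -0.046 and -0.029. The gene mean was 0.017 ± 0.066, and the spot means, 0.035 and -0.0010, lay close together on either side of 0.

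Lhx1 and Lhx5 encode related LIM homeodomain factors, of which Lhx5 is needed for the cortical hem and for the spread of Cajal-Retzius cells. Lhx1 lies on chromosome 11 from 84517975 to 84525534. Its spot 41735 gave -0.098 and -0.109 with wild type in Cy5 and -0.080 and -0.023 with 152F7 in Cy5, all below 0, and spot 38094 gave -0.032 and 0.039, then -0.041 and -0.042, on both sides of it. The Lhx1 mean was -0.048 ± 0.017, the smallest SD of the members, and 41.4% of all genes had a mean at least as large in size. Lhx5 lies on chromosome 5 from 120431886 to 120441457. Its spot gave 0.010 and 0.007 with wild type in Cy5 and -0.181 and -0.025 with 152F7 in Cy5, a mean of -0.047 ± 0.091, and the orientations fell on opposite sides of 0.

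Calb2 encodes calretinin, a calcium-binding protein used as a marker of Cajal-Retzius cells, and lies on chromosome 8 from 110142526 to 110168212. Spot 39364 gave 0.115 and 0.074 with wild type in Cy5 and 0.087 and -0.007 with 152F7 in Cy5, and spot 19215 gave -0.070 and -0.047, then 0.052 and 0.043. Spot 24391 gave 0.049, -0.137 and 0.001, with no value on replicate 2 of 152F7 in Cy5. No spot kept its sign on every array that measured it. The gene mean was 0.031 ± 0.026, and the spot means of 0.067 and -0.0055 differed by 0.073, more than the median gene's spots and less than the upper quartile of 0.099. The 5 Cajal-Retzius genes had a median of 0.017, and 0 of 5 were counted at 1.1-fold.

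Cxcl12, the meningeal cue, was above 0 at every measurement, by a small amount. It lies on chromosome 6 from 117168535 to 117181368, and its 2 spots are annotated with different RefSeq transcripts of the gene. Spot 19935 gave 0.062 and 0.044 with wild type in Cy5 and 0.040 and 0.049 with 152F7 in Cy5, and all 4 arrays were close together. Spot 20372 gave 0.028 and 0.060 with wild type in Cy5 and 0.218 and 0.241 with 152F7 in Cy5, so its orientations did not overlap. The gene mean was 0.093 ± 0.052, which is 1.07-fold and under the 1.1-fold threshold, and 16.1% of all genes had a mean at least as large in size. The spot means were 0.049 and 0.14, a difference of 0.088.

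Genes of the meninges, the tissue that makes Cxcl12, included both higher and lower ones. Of 14 listed genes 12 were measured, and 5 were higher and 1 lower at 1.1-fold (median 0.066, with medians per array from -0.016 to 0.188). The higher ones were the matrix genes Dcn (0.43 ± 0.057), Col1a1 (0.34 ± 0.054) and Col3a1 (0.21 ± 0.10), the retinoic acid enzyme gene Aldh1a2 (0.19 ± 0.051) and the GABA transporter gene Slc6a13 (0.19 ± 0.059). Twist1, a factor of mesenchyme, was lower at -0.28 ± 0.20. The factor genes Foxc1 and Foxd1, which mark the early meninges, had 0.0088 ± 0.12 and -0.049 ± 0.0061. Their part in the Cxcl12 value was not tested.

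The receptors that answer to these signals did not pass 1.1-fold. Of 13 genes of reelin signalling 0 were higher and 0 lower (median 0.0043, from -0.073 for Pafah1b1, the lissencephaly gene, to 0.041 for the integrin gene Itga3). The reelin receptor genes Vldlr and Lrp8 had 0.016 ± 0.031 and 0.031 ± 0.11, and Dab1, the adaptor phosphorylated downstream of both, had 0.023 ± 0.093 over 4 spots. Of the 2 Cxcl12 receptors, Cxcr4 had 0.027 ± 0.091 and Ackr3, which also clears the ligand, had -0.063 ± 0.062.

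Other genes of Cajal-Retzius cells gave no count either. Of 11 listed genes 10 were measured, and 0 were higher and 0 lower. Their median was -0.028, with 8 of 10 below 0, where 5720 of 11791 genes lay below 0, and their range ran from -0.070 for the factor gene Ebf1 to 0.088 for Tbr1, a factor of early cortical neurons. Ebf2 and Ebf3, regulators of these cells, had -0.013 ± 0.10 and -0.017 ± 0.030, and Nhlh2 had -0.056 ± 0.074. Of the zinc finger factors related to the Zic family, Gli2 and Gli3, the effectors of hedgehog signalling, had 0.055 ± 0.055 and 0.12 ± 0.13, and Gli1 had no spot with values on all arrays.

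**Figure D3:**
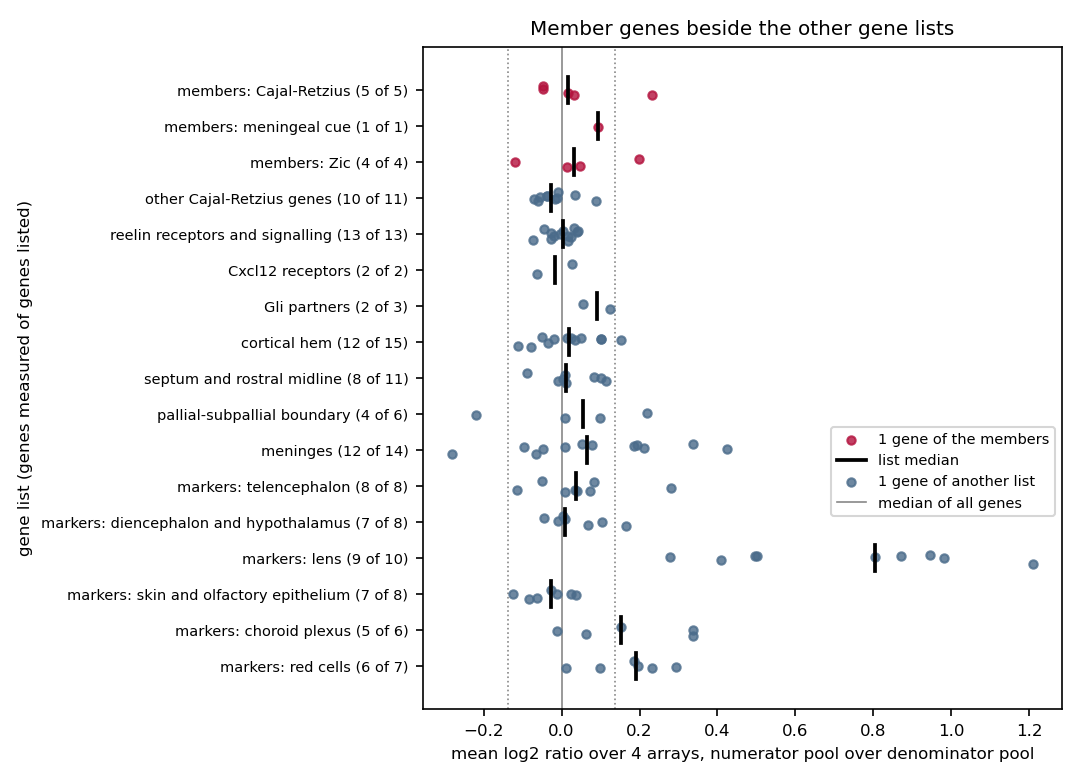
Mean log2 ratio over 4 arrays of each gene (points) in the member groups (red) and in the other lists (blue), with the list median as a black bar, the median of all genes as a grey line and 1.1-fold as dotted lines. Most members lie inside the dotted lines, as do all genes of reelin signalling, and the lens markers lie to the right of them.

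The regions where Cajal-Retzius cells arise were compared in the same way. Of 15 genes of the cortical hem 12 were measured, and 1 was higher and 0 lower (median 0.019). This was Bmp7, a growth factor of the dorsal midline and meninges, with 0.177 and 0.216 with wild type in Cy5 and 0.120 and 0.097 with 152F7 in Cy5, a mean of 0.15 ± 0.054 and above 0 on each array. Wnt3a, the hem's best known signal, had 0.10 ± 0.049. Of the 12 hem genes 7 lay above 0 and 5 below, among the latter Bmp4 at -0.11 ± 0.16 and Rspo3 at -0.078 ± 0.027. The Bmp4 mean came mostly from 1 array, -0.346 on replicate 1 of 152F7 in Cy5, with the others between -0.049 and -0.027. Of 11 genes of the septum and rostral midline 8 were measured and 0 were counted (median 0.010), with the patterning signal Fgf8 at 0.0048 ± 0.094.

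The boundary between pallium and subpallium gave a gene in each direction. Of 6 listed genes 4 were measured. Dbx1, a homeobox factor whose lineage yields Cajal-Retzius cells at this boundary and in the septum, gave -0.363 and -0.326 with wild type in Cy5 and -0.109 and -0.082 with 152F7 in Cy5, a mean of -0.22 ± 0.14. Its 4 arrays lay below 0, and the first orientation was the lower. Sfrp2, a secreted Wnt inhibitor of the boundary, gave 0.079 and 0.225, then 0.198 and 0.376, a mean of 0.22 ± 0.12 and above 0 on each array.

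Among markers of tissue next to the telencephalon, those of the lens were higher throughout and the other lists in part or not at all. In the numerator pool 9 of 9 measured lens markers were higher at 1.1-fold (list median 0.80), as were 3 of 5 choroid plexus markers (0.15), 4 of 6 red cell markers (0.19), 1 of 7 markers of diencephalon and hypothalamus (0.0078, the eye field gene Rax) and 0 of 7 markers of skin and olfactory epithelium (-0.026), and 0 were lower in any of these lists. The 8 telencephalon markers used here were measured on all arrays, and 1, the factor gene Lhx2, was higher at 0.28 ± 0.12 and 0 were lower. A ratio does not show how strongly a marker is expressed, so the labelled tissue could be checked only for the presence of values. The part of these tissues in the values of Reln, Cxcl12, Zic1 and Zic4 was not tested.

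**Figure D4:**
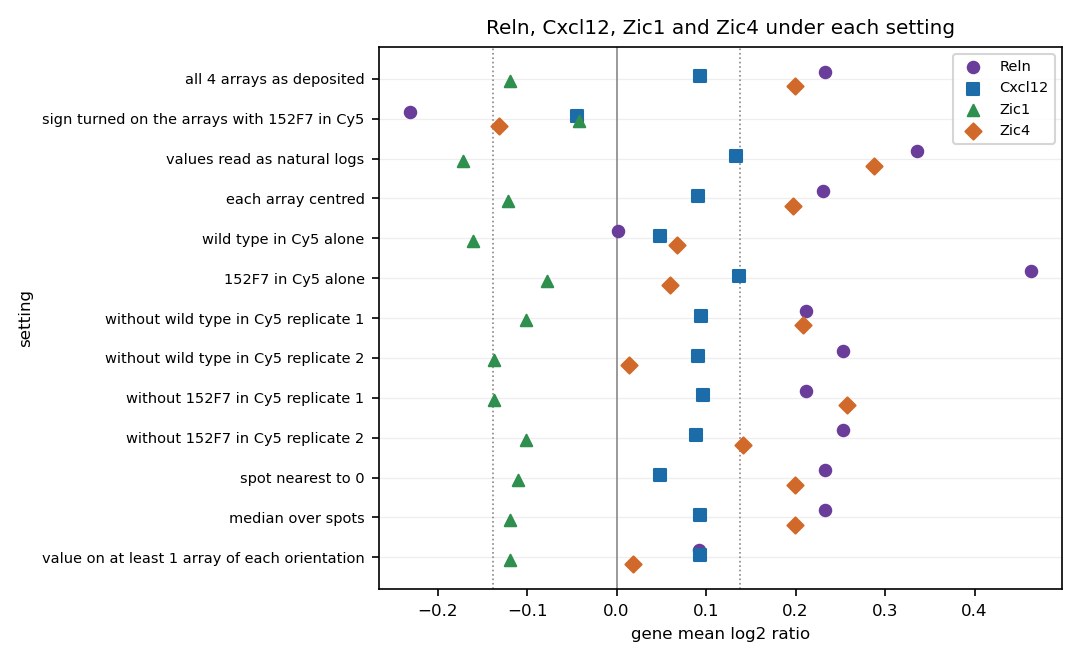
Mean log2 ratio of Reln, Cxcl12, Zic1 and Zic4 under each setting, 1 row per setting, with 1.1-fold as dotted lines and small vertical offsets to separate the marks. Zic1 is below 0 in every row, Cxcl12 is above 0 in every row but the one with 1 orientation turned, and Zic4 falls to 0.014 and 0.019 in the rows where its second spot enters with 3 arrays.

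Under the other settings the values of Reln and Zic4 moved most, and those of Zic1 and Cxcl12 less. Over the settings that leave out 1 array, the mean of Reln ran from 0.21 to 0.25, that of Cxcl12 from 0.089 to 0.097, that of Zic1 from -0.14 to -0.10 and that of Zic4 from 0.014 to 0.26. With wild type in Cy5 alone, Reln was at 0.0020, Cxcl12 at 0.049 and Zic4 at 0.068. With 152F7 in Cy5 alone, Reln was at 0.46, Cxcl12 at 0.14, Zic1 at -0.078 and Zic4, now with both spots, at 0.060.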

How the data were processed

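Per the labels' protocols, 1 ug of total RNA extracted with Trizol was amplified, and Cy3 or Cy5 was built in as the label. The deposited table holds 1 log ratio per spot and array, read as log2. The array medians lay between -0.007 and 0.007, and 53.7% to 65.3% of the 44290 spots had a value per array. Neither log base, filter, normalization, background correction nor scanner software is given in the sources used here. Intensities were not used, so the number of arrays limits the precision.

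Of the 44290 spots, 32042 carry 1 gene symbol, 47 several and 12201 none in the platform annotation. Symbols were checked by Entrez identifier against the GRCm38.p6 gene table, and 0 symbols of the 19 member spots differed. A gene value is the mean over its spots with values on all 4 arrays, both dye orientations weighing equally (Python 3.11.15, pandas 2.3.3). The counting rule was checked on simulated data. There all spots of a gene shared 1 true fold and had values on all arrays, so a case like the Zic4 spots was not covered. Named genes are all members, then at most 6 genes per other list past 1.1-fold by size, then the 2 genes nearest to a member past it. Genes named outside this rule were chosen after their values were seen. Some listed genes are not reported here. The members and lists were chosen with earlier results of these data known. Alternatives were another direction, log base, centring, arrays, spot rules and filter on missing values.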

Additional observations from a re-analysis of the deposited data

Results flagged for a closer look

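For 3 results, both arrays of one dye orientation lay on one side of 0 and both arrays of the other orientation on the opposite side. Taken as 152F7 in Cy5 minus wild type in Cy5, the difference between the orientation means was -0.11 for Lhx5, 0.11 for spot 19215 of Calb2 and -0.073 for spot 19820 of Trp73. These differences were not tested, and the median size of this difference over all genes was 0.0955.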

How the results depend on the processing

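With 1 orientation turned, as if the values were Cy5 over Cy3, the Zic4 mean reversed to -0.13 and the Reln mean went from 0.23 to -0.23. Under that reading the sex-linked genes would change sign between the orientations. In that setting 0 members were higher and 0 lower at 1.1-fold, where 2.39% of all genes were higher and 4.49% lower. Its medians were -0.060 for the Zic genes and -0.043 for all 10 members. With natural logs 1 member, Zic4, was higher and 1 member, Zic1, lower at 1.1-fold, where 6.47% of all genes were higher and 3.78% lower. With wild type in Cy5 alone 0 members were higher and 1 lower at 1.1-fold, where 5.72% of all genes were higher and 7.12% lower, and the median of all members was -0.00033. With 152F7 in Cy5 alone 1 member, Reln in place of Zic4, was higher and 0 lower at 1.1-fold, where 11.7% of all genes were higher and 6.73% lower. The median of the Cajal-Retzius genes was then -0.032 and that of all members 0.052. With a value needed on at least 1 array of each orientation 0 members were higher at 1.1-fold and 0 lower. Over all genes 2.63% were higher and 1.53% lower there. The cause of these changes was not tested, apart from the spots that enter or leave. Of 84 comparisons of the member counts and medians with an alternative, 74 stayed within their limits and 10 did not. A count had to be equal or within a ratio of 1.5, and a median within the SD of its medians per array. Some of the 74 could hardly differ. Counts at 1.5-fold started at 0, and no member had more than 2 spots with all arrays, so a median over spots equals their mean. The tally therefore does not measure how robust the values are. At 1.5-fold 0 members were counted in either direction under all 12 alternatives. Without 1 array the count at 1.1-fold stayed at 1 higher and 0 lower, but without replicate 2 of wild type in Cy5 the member was Reln in place of Zic4. In these settings 3.34% to 3.83% of all genes were higher and 1.65% to 2.36% lower. The count of all genes lower at 1.1-fold, 171, was 919 with wild type in Cy5 alone, 820 with 152F7 in Cy5 alone, 530 with 1 orientation turned, 446 with natural logs, and 283 and 262 without replicate 2 of wild type and of 152F7 in Cy5. The count higher, 403, was 738 and 1430 with these orientations alone and 763 with natural logs. Each array compared both pools directly, but with 1 pool per genotype no test was made, paired or not.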
